A study of Mus musculus with 16 samples.

Results

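Untreated keratinocytes of Ts1Rhr mice (Ts-NT) were compared with untreated wild-type keratinocytes (WT-NT) on 8 of the 16 arrays of the study, 4 per genotype. These 8 arrays were chosen by their labels as the cultures that received no TPA. Ts-NT cultures carried the Ts1Rhr duplication and so had 3 copies of the segment, WT-NT cultures had 2, and both were on the FVB/N strain with no other allele or agent named. The other 8 arrays, from cultures of the same genotypes given 0.2 μM of the phorbol ester TPA for 12 h, entered the estimate of the spread and served as a second look. Per the methods each keratinocyte line came from a single newborn pup and the trisomic segment had been crossed in from C57BL/6J. The 4 arrays of a group therefore stand for 4 numbered cultures. The main limma p-values rest on the spread within 4 groups, pooled over all 16 arrays. They count every array as independent, although treated and untreated arrays share their cultures. Where the replicate number is a block, what arrays of that number share is removed from the spread.

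Ts1Rhr is a segmental trisomy of mouse chromosome 16 that runs from *Cbr1* to *Fam3b* and matches a part of human chromosome 21 that is present in an extra copy in Down syndrome. A gene in such a segment is transcribed from an additional template, and in many tissues the RNA of trisomic genes lies above the disomic level, though single genes can be buffered or exceed the gene dose. Keratinocytes are the cells that build the epidermis: basal cells divide on the basement membrane, and their progeny stop dividing, make the spinous layer and end as the cornified envelope.

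The Ts-NT arrays were brighter in their background. Probes that were detected on none of the 16 arrays had a median raw signal of 201 ± 12.8 units in Ts-NT (185 to 215) and 150 ± 5.15 in WT-NT (145 to 157, mean ± s.d., n = 4 each), a ratio of 1.34 (exact permutation test, two-sided p = 0.0286, the smallest that 4 arrays against 4 allow). Detected probes, those with a detection p of 0.01 or less, numbered from 6746 to 7822 on the Ts-NT arrays and from 8031 to 8876 on the WT-NT arrays (exact permutation p = 0.0286). The 95th percentile of the raw signal overlapped, at 774 to 1125 in Ts-NT and 902 to 1313 in WT-NT (exact permutation p = 0.686). Background and genotype cannot be told apart on these arrays.

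**Figure D1:**
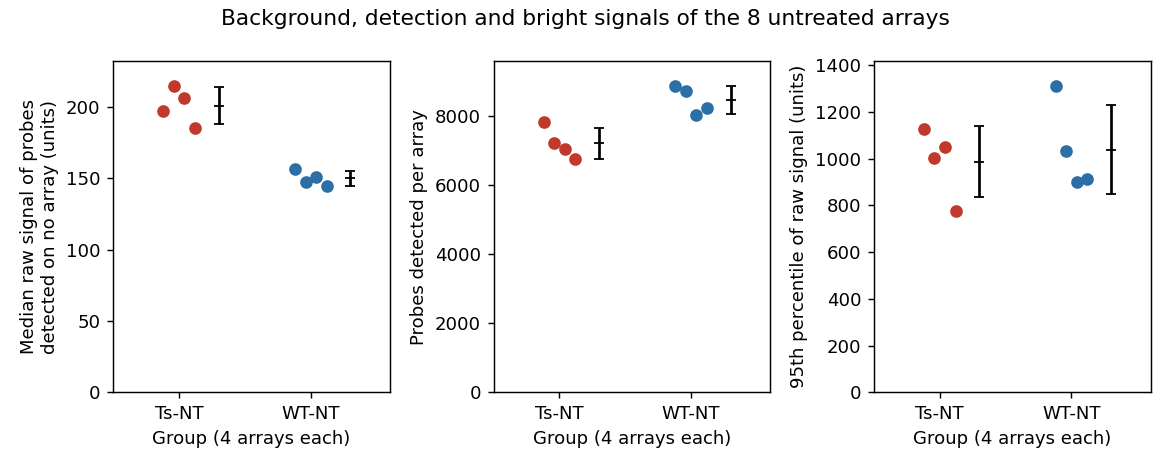
Background, detected probes and bright signals of the 8 untreated arrays, with 1 point per array and the mean ± s.d. beside each group of 4. The 4 Ts-NT arrays (185 to 215 raw units) lie above the 4 WT-NT arrays (145 to 157) in background and below them in detected probes, while the 95th percentiles of the raw signal overlap.

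A probe was compared when it was detected on at least 4 of the 8 arrays, which left 7878 of 25697 probes, 7419 of them named, for 5802 genes. Of the probes compared, 5708 were detected on all 8 arrays, 84 on every WT-NT and no Ts-NT array, and 0 the other way round, so near the detection limit the filter let in probes mostly through WT-NT. An arsinh transform then gave log2-like levels from which each array's background is subtracted. On that scale the median difference over all genes was −0.15 in Ts-NT relative to WT-NT. It was taken off before the test, so that every difference below is relative to the median of all genes and the Ts-NT levels printed here are raised by 0.15. The correction left a trend with brightness: the median relative difference was 0.13 among genes in the dimmest sixth of the probes and −0.04 in the brightest (−0.02 and 0.003 after neqc, an alternative normalization).

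The genes of the trisomic interval bear on the genotype labels and were looked at first. Of the 30 genes listed for the interval 28 had a probe, and 13 passed the detection filter. Of those 13, 12 lay above the median of all genes and 1 below it, with a median of 0.23 on the log2 scale (50% of all genes lie above by construction). In the TPA-treated cultures 11 of the 13 lay above, with a median of 0.19. An extra template on top of 2 would add 0.585 if RNA followed gene dose, and the 95% confidence intervals of 9 genes held both this value and 0. These arrays therefore placed few single genes on either side of the copy ratio. The interval's median was 0.12 without Ts-NT replicate 1 (8 of 13 genes above), 0.36 without Ts-NT replicate 3 and 0.41 without Ts-NT replicate 4.

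*Pigp* and *Ttc3* stood highest in the interval together with *Chaf1b*, and they are neighbours. The start sites printed here lie back to back, so a single stretch of DNA serves as the promoter window of both. Both genes lay above the median at every probe compared. That does not set them apart, since 12 of the 13 interval genes lay above and so did all 7 further probes of the interval. The windows below run from 250 bases before to 50 bases after a start site and are RefSeq sequence of build GRCm38.p6. *Pigp* is read from the minus strand (window chr16:94370501-94370800, start at 94370550) and *Ttc3* from the plus strand (window chr16:94370489-94370788, start at 94370739), and 288 bases are common to both. RefSeq gives 4 start sites for *Pigp*, 29 to 409 bases from that of *Ttc3*, and the one printed is 189 bases away. The *Pigp* start at 94371015 lies beyond the *Ttc3* start and so is not back to back with it. Capitals mark the site of the factor NRF1 (the letters GCGCA, any base, then GCGC, on either strand) and CACGTG, an E-box.

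Pigp: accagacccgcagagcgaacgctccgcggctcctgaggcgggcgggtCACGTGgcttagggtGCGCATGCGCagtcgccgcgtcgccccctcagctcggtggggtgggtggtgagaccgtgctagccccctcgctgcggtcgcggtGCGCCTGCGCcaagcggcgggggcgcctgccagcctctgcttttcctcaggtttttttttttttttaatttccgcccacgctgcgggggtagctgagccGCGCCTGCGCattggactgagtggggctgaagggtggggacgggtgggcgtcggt
Ttc3: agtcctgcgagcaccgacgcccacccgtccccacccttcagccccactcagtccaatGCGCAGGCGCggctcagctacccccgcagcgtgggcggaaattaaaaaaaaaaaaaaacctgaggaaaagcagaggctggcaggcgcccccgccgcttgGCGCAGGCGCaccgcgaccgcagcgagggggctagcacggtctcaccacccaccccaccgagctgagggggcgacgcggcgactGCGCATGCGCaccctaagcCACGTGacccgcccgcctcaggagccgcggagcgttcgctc

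Each window held 3 matches to the NRF1 letters and 1 to CACGTG, the same stretches read from opposite strands. Of 32851 promoter windows in the table, 4.6% held the first and 7.15% the second, and the motifs do not overlap each other. Both windows also held CCAAT (37.4% of windows), and neither held TATAAA (13.6%) or CCGGAAG, letters bound by ETS factors (8.86%). A match describes the letters and no binding was measured.

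*Pigp* encodes a subunit of the enzyme that attaches the first sugar of the GPI anchor. Its levels were 9.65, 9.74, 10.24 and 9.60 in Ts-NT cultures 1 to 4, against 8.79, 8.87, 8.56 and 8.75 in WT-NT. All 4 Ts-NT arrays were above all 4 WT-NT arrays, by 0.85 to 1.68 between arrays of the same number. The difference was 1.06 ± 0.21 (log2, standard error), a ratio of 2.09, with a 95% confidence interval of 0.63 to 1.499 that lay above the copy ratio. Its adjusted p was 0.125 in limma's fit without the replicate number and 0.0450 with the number as a block. A second, dimmer probe for *Pigp* was higher by 0.58 ± 0.25, and its groups did not overlap either. Its 95% confidence interval, 0.06 to 1.11, held the copy ratio. After TPA the probes differed by 0.70 and 0.60.

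*Ttc3*, a ubiquitin ligase that acts on the kinase AKT, had 10.24, 9.995, 9.43 and 9.88 in Ts-NT and 9.46, 9.52, 8.60 and 8.97 in WT-NT. Every Ts-NT culture exceeded the WT-NT culture of its number, by 0.48 to 0.91, although 1 Ts-NT level lay within the range of WT-NT. The difference was 0.75 ± 0.28 (adjusted p = 0.379; 0.0997 with the block). Over the 5 probes of *Ttc3* it ran from 0.37 to 0.87, the highest at a dim probe that was detected on 3 Ts-NT arrays and 1 WT-NT array. After TPA the same 5 probes differed by 0.68 to 0.93.

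*Chaf1b*, a subunit of the factor that loads histones on newly made DNA, had 9.19, 8.30, 8.35 and 8.45 in Ts-NT and 8.17, 7.52, 7.98 and 7.46 in WT-NT. The groups did not overlap, yet the interval of the difference was wide (0.79 ± 0.42, 95% confidence interval −0.09 to 1.67, adjusted p = 0.588). Replicate 1 was the highest of its group in both genotypes.

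*Brwd1*, a bromodomain protein that reads acetylated histones, had 7.07, 6.75, 6.92 and 7.09 in Ts-NT and 6.94, 6.15, 6.24 and 5.94 in WT-NT. Its difference was 0.64 ± 0.29 (adjusted p = 0.486), with 4 of 4 pairs higher in Ts-NT. The other probes of *Brwd1* differed by 0.20 and 0.01. The groups overlapped through WT-NT replicate 1.

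Among the others, *Psmg1*, a chaperone of proteasome assembly, differed by 0.44 ± 0.31 and *Morc3*, a chromatin ATPase of nuclear bodies, by 0.23 ± 0.20. *Dyrk1a*, the kinase that counters NFAT signaling, differed by 0.29 ± 0.25 but was detected on a single Ts-NT array against 4 WT-NT arrays, and it belonged to the dimmest sixth. Relative to that sixth its difference was 0.16. *Cbr3* and *Cbr1*, which encode carbonyl reductases, differed by 0.19 ± 0.51 and 0.06 ± 0.35 (*Cbr1* was detected on 1 Ts-NT and 3 WT-NT arrays), *Get1*, which inserts tail-anchored proteins into the ER, by 0.17 ± 0.24, the transcription factor gene *Ets2* by 0.11 ± 0.34 and *Bace2*, a protease related to beta-secretase, by 0.11 ± 0.33. The directions of *Cbr1*, *Ets2* and *Bace2* turned when the median was not taken off.

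*Hmgn1*, which encodes a nucleosome binding protein, was the exception in the interval. It had 12.10, 11.71, 11.52 and 10.92 in Ts-NT and 12.18, 12.17, 11.34 and 11.88 in WT-NT. The difference was −0.33 ± 0.33 (95% confidence interval −1.02 to 0.35), so the copy ratio lay outside its interval, and 1 of 4 pairs was higher in Ts-NT. After TPA the difference was −0.27.

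**Figure D2:**
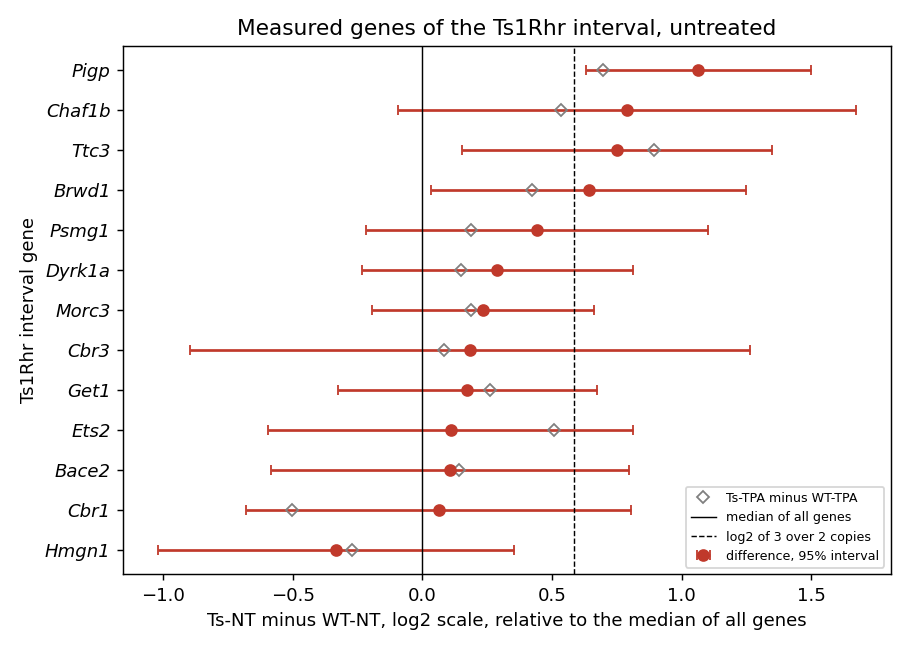
Differences of the 13 measured genes of the Ts1Rhr interval between Ts-NT and WT-NT on the log2 scale, as points with 95% confidence intervals (n = 4 arrays per group), with the difference between the TPA-treated groups as open diamonds. Of the points 12 lie right of the median of all genes (solid line) and *Hmgn1* lies left of it. The interval of *Pigp* alone, shown at its brighter probe, lies wholly above the ratio of 3 to 2 copies (dashed line, 0.585).

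Another 11 genes of the interval were detected on none of the 8 arrays, among them *Sim2*, *Kcnj6*, *Pcp4* and *Dscam*, which are known from neurons. *Vps26c*, *Kcnj15*, *Igsf5* and *Fam3b* were detected on 1 to 3 arrays and were not compared. Next to the interval and outside it, *Setd4*, a methyltransferase gene that lies beside *Cbr1*, had 6.63, 6.72, 7.05 and 7.10 in Ts-NT and 6.32, 6.03, 6.64 and 6.64 in WT-NT. Its difference was 0.47 ± 0.20 (adjusted p = 0.454) and it was higher in 4 of 4 pairs, after TPA by 0.56. *Runx1*, the next gene on that side, differed by 0.03 ± 0.28, and *Rcan1*, an inhibitor of calcineurin that is also disomic in Ts1Rhr, by 0.02 ± 0.22. Beyond *Fam3b*, the protease gene *Tmprss2* differed by 0.15 ± 0.28 and the kinase gene *Ripk4* by 0.13 ± 0.23. Among genes the study knocked down, the GTPase gene *Rab32* differed by 0.08 ± 0.29 and the stromelysin gene *Mmp3* by 0.29 ± 0.40 (−0.14 and −0.02 at its dimmer probes). *Elk3* and *Mmp9*, which the study also knocked down, were not among the genes compared.

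Over the whole array limma called 0 of 5802 genes at an adjusted p below 0.05 (0%), and the lowest adjusted p was 0.125. With an unadjusted p under 0.05, 380 genes were higher at a probe (6.55%) and 312 were lower at a probe (5.38%). The standard error of a gene was 0.25 at the median, against a median size of 0.19 for the differences. Arrays of the same number deviated together across the genotypes, and with the number as a block limma called 10 genes (0.172%), 4 higher (0.0689%) and 6 lower (0.103%). On the 8 untreated arrays alone the blocked fit called 50 genes (0.862%), 15 higher (0.259%) and 35 lower (0.603%). All 10 were among those 50. The blocked fit called 0 genes when any of the 4 numbered pairs was left out, and the median standard error with the block was 0.21.

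The 4 genes that rose with the block were *Pigp*, *Rps9*, *Gnas* and *Tbrg1*. For all 10 genes called with the block, each ± in the text is the standard error of the fit without it. In that limma fit their adjusted p ran from 0.125 to 0.363. *Rps9*, a protein of the small ribosomal subunit, had 12.78, 12.77, 12.59 and 12.42 in Ts-NT, against 11.90, 11.55, 11.29 and 11.53 in WT-NT. The 2 groups were clearly apart, and the difference was 1.07 ± 0.21 (blocked adjusted p = 0.0465), though the brighter probe of *Rps9* differed by 0.31. *Gnas*, the stimulatory G protein subunit that activates adenylyl cyclase, had 7.32, 7.52, 7.57 and 7.40 in Ts-NT and 6.03, 6.46, 6.90 and 6.46 in WT-NT. Its difference was 0.99 ± 0.26 (blocked adjusted p = 0.0450), against 0.24 at its brighter probe and −0.18 after TPA. *Tbrg1*, a growth inhibitor that stabilizes p53, was higher by 0.91 ± 0.20 (blocked adjusted p = 0.0450), while its brighter probe differed by −0.49.

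The 6 that fell with the block were *Ywhag*, *Ncstn*, *Hnrnpm*, *Ybx3*, *Pole3* and *Atxn1*. *Ywhag*, the gamma member of the 14-3-3 adaptors that bind phosphorylated proteins, had 9.40, 8.98, 8.41 and 8.04 in Ts-NT and 10.07, 10.28, 9.62 and 9.75 in WT-NT. It was lower in each pair, and the mean difference was −1.22 ± 0.28 (blocked adjusted p = 0.0450) and −0.89 after TPA. *Ncstn*, which encodes nicastrin, the substrate receptor of gamma-secretase, had 9.11, 8.53, 8.40 and 8.35 in Ts-NT and 9.84, 9.73, 9.37 and 9.5004 in WT-NT. The difference was −1.01 ± 0.20 (blocked adjusted p = 0.0465), but a dimmer *Ncstn* probe was higher by 0.28 with groups that did not overlap.

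*Hnrnpm*, a splicing regulator, fell by 1.21 ± 0.28 at 1 of 3 probes, and its other probes differed by −0.07 and 0.11. *Ybx3*, a Y-box protein of epithelial junctions, fell by 1.27 ± 0.31 at a probe detected on 2 Ts-NT arrays, against 0.16 at each of its other probes. *Pole3*, an accessory subunit of DNA polymerase epsilon, fell by 1.05 ± 0.27 at a probe detected on 2 Ts-NT and 4 WT-NT arrays and differed by −0.07 at its brighter one. *Atxn1*, a transcriptional regulator, had a single probe, detected on 2 Ts-NT and 4 WT-NT arrays. It fell by 1.23 ± 0.45 with groups that overlapped (limma's adjusted p = 0.363 without the block, 0.0498 with it). With the block its standard error was 0.24. Of the 1255 genes with more than 1 probe compared, 636 (50.7%) had probes on opposite sides of the median.

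**Figure D3:**
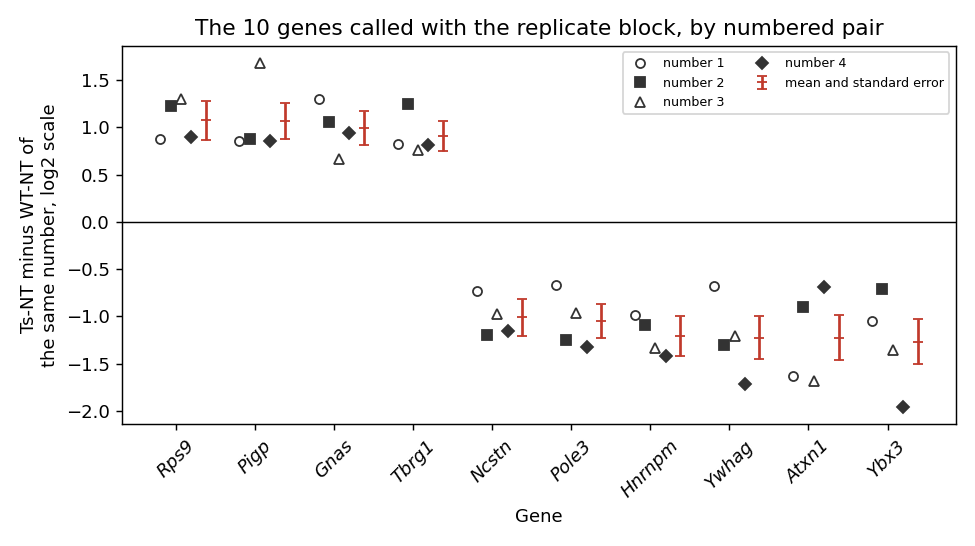
Differences between the Ts-NT and the WT-NT array of the same number, on the log2 scale relative to the median of all genes, for the 10 genes called with the replicate block. Each symbol is 1 of 4 numbered pairs, and the bar gives the mean and the standard error of the blocked fit. Every pair difference lies on the side of its gene's mean, from 0.66 to 1.68 for the genes that rose and from −1.96 to −0.66 for those that fell. These genes were chosen by the fit blocked on the same pairs, which favors such agreement.

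In 201 genes (3.46%) the 4 Ts-NT levels lay wholly above the 4 WT-NT levels at the brightest probe, and in 165 genes (2.84%) wholly below. Ranked by size within these, *Slpi* was the highest. Slpi is a secreted inhibitor of neutrophil and mast cell proteases that keratinocytes make after wounding. It had 10.53, 10.96, 10.60 and 10.69 in Ts-NT, against 9.95, 9.52, 9.25 and 8.85 in WT-NT, a difference of 1.30 ± 0.28 (ratio 2.47, adjusted p = 0.125; 0.0766 with the block). *Tomm22*, the central receptor for protein import into mitochondria, had 7.46, 8.23, 7.79 and 7.44 in Ts-NT and 6.10, 6.49, 6.50 and 6.92 in WT-NT. The difference was 1.23 ± 0.24 (adjusted p = 0.125; 0.0541 with the block) and 0.21 after TPA.

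*Il1f5* encodes the antagonist of the IL-36 receptor in the epidermis. It was detected on 4 Ts-NT and 2 WT-NT arrays and was higher by 1.12 ± 0.33. *Hsp90aa1*, the inducible cytosolic HSP90, had 9.46, 9.38, 10.07 and 9.30 in Ts-NT and 8.44, 8.73, 8.60 and 8.72 in WT-NT, a difference of 0.93 ± 0.23 (adjusted p = 0.200; 0.0766 with the block). *Pmvk*, a kinase of the mevalonate pathway to cholesterol, was higher by 0.97 ± 0.28.

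The remaining genes on the high side were *Prf1* (1.01 ± 0.40), the transcriptional coregulator *Ifrd1* (0.96 ± 0.27), *Tma7*, which is associated with translating ribosomes (0.96 ± 0.29), and *Snapc1*, a subunit of the complex that starts transcription of small nuclear RNAs (0.93 ± 0.26). *Prf1* encodes perforin, the pore protein of cytotoxic lymphocytes, and its probe had 9.68 to 10.50 in Ts-NT and 8.68 to 9.52 in WT-NT. The immune markers *Ptprc*, *Cd74*, *Cd3e* and *Cd207* were detected on 0 of these 8 arrays and *Lyz2* on 1, a WT-NT array.

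On the low side *Adss* came first. It encodes adenylosuccinate synthase of AMP synthesis and had 7.70, 7.29, 7.43 and 7.27 in Ts-NT, against 8.20, 9.04, 8.45 and 9.08 in WT-NT. The difference was −1.26 ± 0.32 (ratio 0.42, adjusted p = 0.202; 0.0805 with the block). *Cmpk1*, a nucleotide kinase that phosphorylates CMP and UMP, differed by −1.05 ± 0.26.

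*Mob1a*, an activator of the LATS kinases of the Hippo pathway, had 7.18, 7.26, 6.85 and 6.63 in Ts-NT and 8.31, 8.39, 7.93 and 7.97 in WT-NT, and its pair differences kept within −1.34 to −1.09. *Prkar1a*, the regulatory subunit of protein kinase A, differed by −1.14 ± 0.33 and *Map2k4*, a kinase upstream of JNK, by −1.06 ± 0.38.

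*Psme4*, a proteasome activator, differed by −1.10 ± 0.27, *Rab18*, a GTPase of the ER and lipid droplets, by −1.07 ± 0.41 and *Marchf6*, a ubiquitin ligase of the ER, by −1.05 ± 0.34. *Rab18* and *Marchf6* lay near the detection limit in Ts-NT (detected on 2 and 1 arrays, against 4 each in WT-NT). None of the 10 highest and 10 lowest genes passed without the block (adjusted p from 0.125 to 0.411), 2 passed with it, and 15 passed with it on the 8 untreated arrays alone. All 20 of them had the same sign in the TPA-treated cultures, where 68% of all genes did, and the median size there was 0.47, against 1.07 untreated. The cultures are the same ones, so the TPA arrays are no separate sample of animals.

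**Figure D4:**
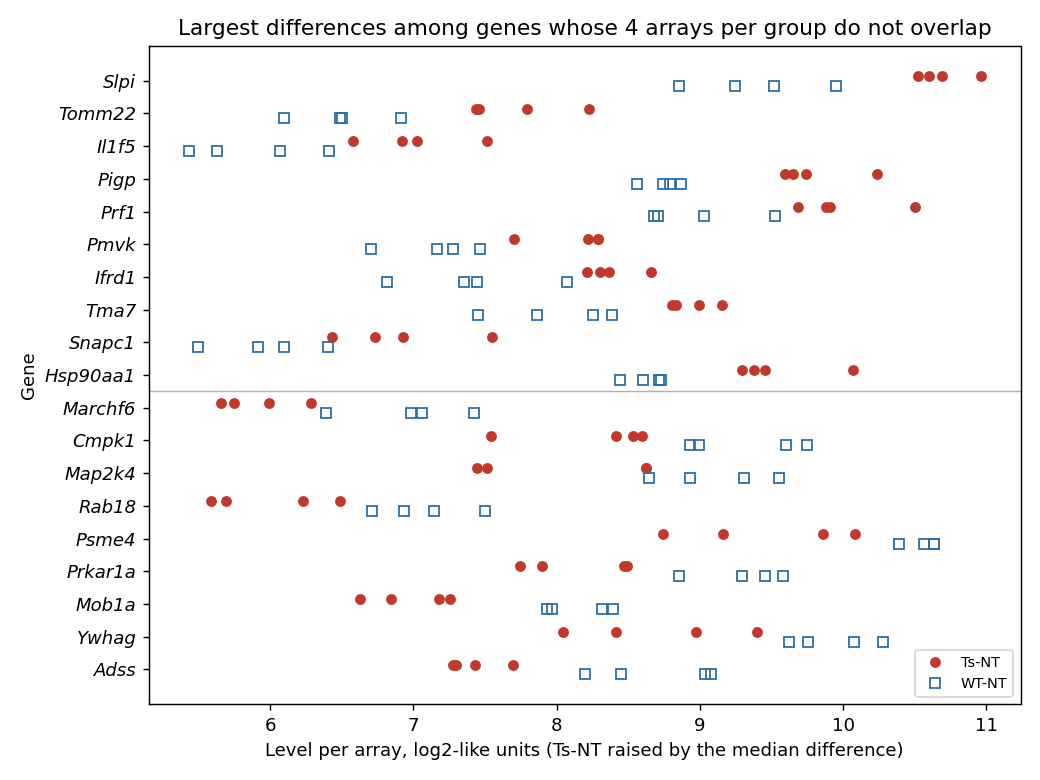
Levels of the 10 highest and 9 of the 10 lowest genes by difference among those whose groups do not overlap, in log2-like units, with 1 symbol per array (4 Ts-NT arrays as filled circles, 4 WT-NT arrays as open squares). The Ts-NT levels lie right of the WT-NT levels above the grey line and left of them below it, and these genes were chosen for that.

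Turning to groups of genes, members are counted below at 1 probe per gene against all genes compared, of which 5.14% were higher and 3.67% lower at an unadjusted p below 0.05. The lists were chosen with earlier results of these data known. Their counts, medians and overlaps, those of the actin list included, therefore describe these arrays and are no separate test. Regulators of the actin cytoskeleton, which shape the cortex and move cells, lay mostly low, with 23 of 29 genes below the median and a group median of −0.13 (−0.26 to −0.07 over the alternatives relative to all genes). Of them 4, *Luzp1*, *Capza1* and *Diaph1* included, had an unadjusted p below 0.05 and a lower level, and 0 had a higher one. *Luzp1*, which binds and cross-links actin filaments, had 9.60, 9.90, 9.75 and 9.56 in Ts-NT and 10.33, 10.57, 10.39 and 10.51 in WT-NT (−0.75 ± 0.16, adjusted p = 0.125; 0.0694 with the block), against −0.30 and −0.09 at its dimmer probes. *Capza1*, which caps the fast end of the filament, was detected on 2 Ts-NT and 4 WT-NT arrays, so that it was compared through WT-NT, and differed by −0.98 ± 0.32. *Diaph1*, a formin that extends filaments, differed by −0.48 ± 0.23. The group's median deviation on an array ran from −0.16 to −0.05 in Ts-NT and from 0.04 to 0.19 in WT-NT, so the arrays did not overlap.

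Cytosolic ribosomal proteins lay mostly high. Of 51 genes 35 lay above the median, 9 had an unadjusted p below 0.05 with a higher level and 0 with a lower one, and 9 did not overlap between the groups, all higher (3.46% of all genes were higher and 2.84% lower without overlap). *Rpl35a* had 12.85, 12.85, 13.63 and 12.68 in Ts-NT and 12.64, 12.02, 12.06 and 11.94 in WT-NT (0.84 ± 0.22, adjusted p = 0.202). *Rpl19* was higher by 0.66 ± 0.20, *Rpl7a* by 0.51 ± 0.20 and *Rps24* by 0.48 ± 0.18. The group median was 0.10 untreated and −0.02 after TPA, it turned to −0.02 with no detection filter and −0.05 with the median not taken off, and the arrays overlapped in it (−0.02 to 0.19 in Ts-NT, −0.18 to 0.07 in WT-NT).

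Subunits of the respiratory chain and of ATP synthase, which make ATP in mitochondria, showed a like balance, with 43 of 63 above the median and a group median of 0.12 (−0.07 after TPA), which turned to −0.008 with no detection filter and −0.03 with the median not taken off. Of them 6 were higher and 2 lower at an unadjusted p below 0.05. The ATP synthase subunits *Atp5h* and *Atp5d* were higher by 0.62 ± 0.19 and 0.57 ± 0.19 and the cytochrome oxidase subunit *Cox6c* by 0.47 ± 0.16, each without overlap, while *Ndufa5* of complex I differed by −0.62 ± 0.22 (0.22 at its dimmer probe). Genes of mitochondrial import and chaperones other than *Tomm22* were spread around the median (8 of 15 above, group median 0.07, which turned to −0.06 with no detection filter and −0.08 with the median not taken off). Neither ribosomal nor respiratory genes were called by the fit without the block.

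Wound keratins and alarmins, a list of keratins of healing epidermis and of proteins that stressed keratinocytes make, had 11 of 14 genes above the median and a group median of 0.20 (−0.002 after TPA, 0.07 to 0.37 untreated over the alternatives relative to all genes). The arrays overlapped in the group's median deviation (0.02 to 0.44 in Ts-NT, −0.36 to 0.08 in WT-NT). Besides *Slpi*, the calcium binding protein *S100a6* was higher, with 10.88, 10.96, 10.97 and 10.63 in Ts-NT and 9.92, 10.32, 10.22 and 10.18 in WT-NT (0.70 ± 0.20, adjusted p = 0.259). *S100a9*, a subunit of calprotectin, differed by 0.83 ± 0.38 with overlap, since WT-NT replicate 1 had the highest level of all, at 10.16. *Krt6a* and *Krt17*, keratins of healing epidermis, differed by −0.04 ± 0.33 and 0.02 ± 0.16.

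Lysosomal and endosomal genes had 17 of 25 below the median and a group median of −0.20 (−0.33 to −0.08 over the alternatives relative to all genes), with 2 higher and 3 lower at an unadjusted p below 0.05. The protease *Ctsl* differed by −0.81 ± 0.32 and *Atp6v1a*, the catalytic subunit of the proton pump, by −0.78 ± 0.31, while *Npc2*, which moves cholesterol out of lysosomes, was higher by 0.57 ± 0.20 and the beta-galactosidase *Glb1* by 0.45 ± 0.21. Among the 14-3-3 adaptors, of which all 7 were measured, *Ywhag* and *Ywhaq* (−0.87 ± 0.32) were low and *Ywhae* was high (0.54 ± 0.23). *Sfn*, the isoform typical of stratified epithelia, differed by −0.59 with an unadjusted p of 0.165.

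The other groups gave few members past an unadjusted p of 0.05. GPI anchor synthesis had 1 of 10, *Pigp*, and 6 of the 10 lay below the median (group median −0.19). Gamma-secretase and amyloid processing had 1 of 8, *Ncstn*. In the calcineurin and NFAT axis 7 of 12 lay below the median (group median −0.22), with the catalytic subunit *Ppp3ca* differing by −0.41 ± 0.18. Cholesterol synthesis had *Pmvk* and the feedback regulator *Insig1* (0.61 ± 0.22, against −0.01 and −0.15 at its dimmer probes). The list named ETS factors lay mostly low (5 of 7 below, group median −0.15), and its member past that p was *Gabpb1* (0.58 ± 0.24, against −0.20 at its dimmer probe). In the AP-1 and immediate early list (7 of 11 below, group median −0.15) *Klf6* differed by −0.80 ± 0.30 (0.03 at its dimmer probe).

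Human chromosome 21 has further mouse counterparts that are disomic in Ts1Rhr. Of those on chromosome 16 outside the interval 17 of 27 lay above the median (group median 0.03, −0.01 without Ts-NT replicate 2, −0.10 with no detection filter and −0.12 with the median not taken off). Of those on chromosomes 17 and 10 it was 12 of 17 (group median 0.13, −0.002 with no detection filter and −0.02 with the median not taken off). *Tmem50b*, a membrane protein gene of the first set, had 7.62, 8.50, 7.86 and 8.39 in Ts-NT and 9.12, 9.08, 8.80 and 9.29 in WT-NT, a difference of −0.98 ± 0.30 (adjusted p = 0.286; 0.0619 with the block). It differed by −0.59 after TPA, and a dimmer probe differed by −0.17 untreated.

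**Figure D5:**
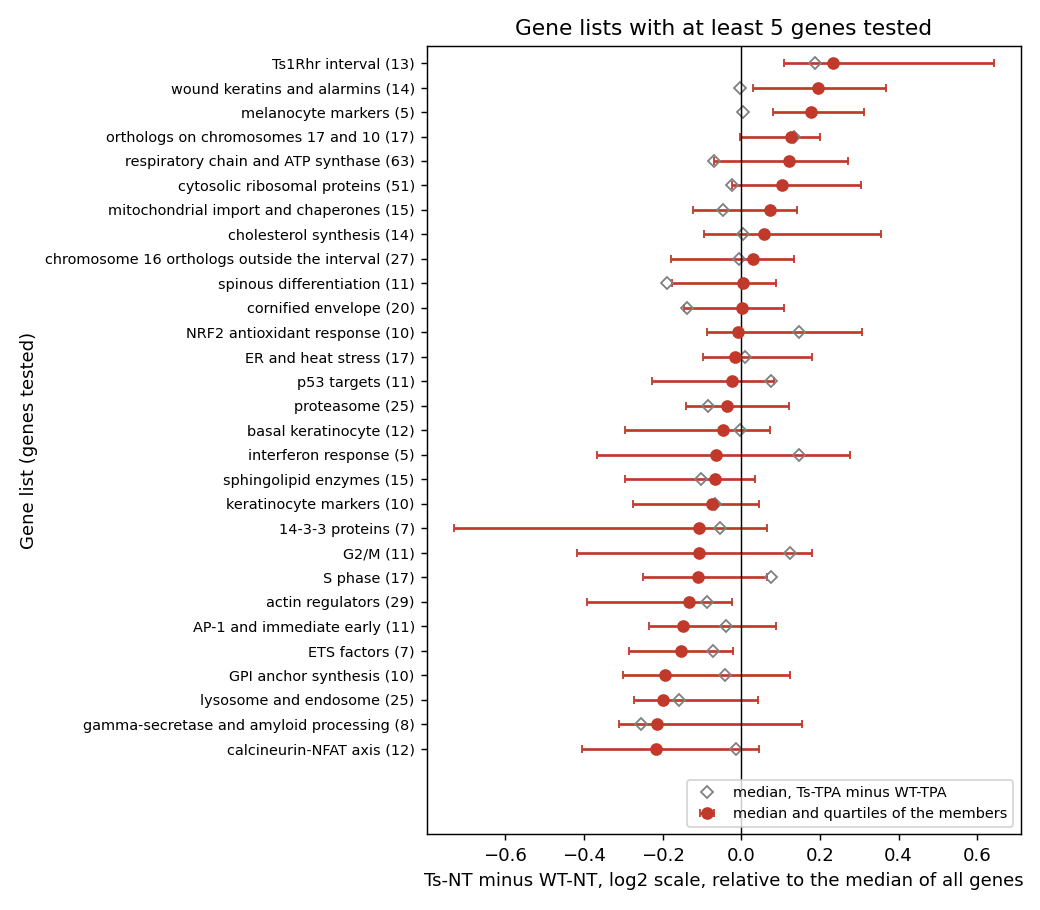
Median and quartiles of the differences between Ts-NT and WT-NT on the log2 scale in each gene list with at least 5 genes compared (their number in parentheses), with the median after TPA as open diamonds. The interval is highest at 0.23, wound keratins and alarmins follow at 0.20, and the calcineurin and NFAT axis is lowest at −0.22.

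The programs of the epidermis itself were close to the median of all genes. Basal keratinocyte genes had a group median of −0.05 (6 of 12 above), spinous genes 0.01 (6 of 11) and cornified envelope genes 0.0007 (10 of 20). The hyaluronan receptor *Cd44* was the member of the basal list with the lowest p and differed by −0.68 ± 0.22 without overlap at the brightest of its 6 probes, 4 of which lay below the median. In the spinous list *Jup*, plakoglobin of desmosomes and adherens junctions, differed by −0.85 ± 0.37 with overlap (detected on 3 Ts-NT and 4 WT-NT arrays). S phase genes had a group median of −0.11 (6 of 17 above) and G2/M genes −0.11 (4 of 11), with 0 of either past an unadjusted p of 0.05. After TPA the S phase median was 0.07 and the G2/M median 0.12, and untreated they turned to 0.02 without Ts-NT replicate 4 (S phase) and to 0.08 without WT-NT replicate 1 or 0.05 without Ts-NT replicate 2 (G2/M). Interferon response, p53 targets, NRF2 targets, stress chaperones, proteasome and sphingolipid genes had medians between −0.07 and −0.008, and all of these but the sphingolipid median turned in some settings. Without single arrays the interferon median, over 5 genes, was 0.34 (WT-NT replicate 1), that of p53 targets 0.11 (Ts-NT replicate 1) and that of NRF2 targets 0.11 (WT-NT replicate 3), and the highest over the alternatives was 0.06 for stress chaperones and 0.04 for the proteasome. Their members with an unadjusted p below 0.05 were *Hsp90aa1*, the glutathione transferase *Gsta4* (0.97 ± 0.39), the p53 target *Ei24* (0.59 ± 0.25) and the proteasome ATPase *Psmc4* (−0.50 ± 0.17).

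Of 12 keratinocyte markers 10 were detected on all 4 arrays of each group, while *Krt15*, a basal keratin, and *Krt1*, a spinous one, were detected on none. *Krt14* had 15.69 to 15.89 in Ts-NT and 15.49 to 15.79 in WT-NT, *Krt5* 11.19 to 12.69 in Ts-NT and 11.74 to 12.81 in WT-NT, and *Trp63* 10.21 to 11.52 in Ts-NT and 10.22 to 11.90 in WT-NT. The integrin *Itgb4* differed by −0.28 ± 0.19 and the desmosomal cadherin *Dsg3* by −0.25 ± 0.21. Some melanocyte genes were also bright in both groups. *Tyrp1* had 12.87 to 13.43 in Ts-NT and 12.71 to 13.54 in WT-NT, and *Dct*, the other bright pigment enzyme gene, had 11.08 to 11.64 in Ts-NT and 10.41 to 11.84 in WT-NT. *Pmel* differed by 0.31 ± 0.36 (0.70 ± 0.31 at its other probe), *Mlana* by −0.06 ± 0.38 and the dim *Mitf* by 0.18 ± 0.21, while *Tyr* was detected on 1 Ts-NT and 2 WT-NT arrays and was not compared. The 5 melanocyte markers compared had a median difference of 0.18, and none had an unadjusted p below 0.05 at its brightest probe.

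Of 13 fibroblast markers 12 had a probe and 4 passed the filter, and 3 of the 4 were above the median. *S100a4* had 6.12, 6.78, 6.52 and 6.83 in Ts-NT and 5.77, 5.51, 5.72 and 5.61 in WT-NT, a difference of 0.91 ± 0.21 (adjusted p = 0.171; 0.0766 with the block), and passed through Ts-NT, where it was detected on 4 arrays against 1 in WT-NT. *Col3a1* and *Sparc* differed by 0.59 ± 0.39 and 0.52 ± 0.27, and *Vim* by −0.13 ± 0.36. Of the markers not compared, *Lum*, *Pdgfra*, *Fap* and *Postn* were detected on 0 of the 8 arrays and *Col1a1* and *Thy1* on 1 of each group. *Dcn* was detected on 1 Ts-NT and 2 WT-NT arrays and *Col1a2* on 1 Ts-NT and 0 WT-NT arrays. Before the Ts-NT levels were raised, *Col1a2* had 5.77 to 6.23 in Ts-NT and 4.80 to 5.65 in WT-NT, mostly below detection. *Sox9*, a factor of hair follicle progenitors, had 8.61, 8.85, 9.16 and 8.69 in Ts-NT and 8.21, 8.08, 8.43 and 8.09 in WT-NT (0.63 ± 0.19, adjusted p = 0.281), and *Krt8*, a keratin of simple epithelia and Merkel cells, was higher by 0.74 ± 0.27. The other Merkel cell marker compared, *Krt18*, differed by −0.24 ± 0.35 (detected on 1 Ts-NT and 4 WT-NT arrays), and *Krt20* and *Atoh1* were detected on 0 arrays. Endothelial markers and the hair follicle keratins *Krt71*, *Krt75* and *Krt25* did not pass. Of the marks of sex, *Uty* and *Eif2s3y* were detected on 0 of the 8 arrays, and *Xist* and *Kdm5d* on 1 Ts-NT and 2 WT-NT arrays each, so the sex of the pups could not be read. In these bulk cultures fewer cells of a kind and less RNA per cell cannot be told apart, and the part of other cell types in the differences was not tested.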

How the data were processed

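RNA of keratinocytes was measured on Illumina MouseRef-8 arrays of 1 color. The authors deposited raw intensities with a detection p-value per probe, which compares the probe with the negative controls of its array, and log2 values they had made with vsn. For build, scanner software and tool versions of the authors' work, the entry is: not given in the sources used here. In place of the vsn package, its arsinh model was refitted in R 4.3.3 to the raw intensities of all 16 arrays (a share of 0.9 of the probes, 7 rounds, 10 strata), which gave correlations of 0.958 to 0.964 with the authors' values. Linear models used limma 3.58.1 on the means of 4 groups, and the contrast was Ts-NT minus WT-NT. The median over 1 probe per gene was taken off the Ts-NT values before the test, with Benjamini-Hochberg adjustment over all 7878 probes and a threshold of 0.05. One passing probe sufficed to call a gene, which is given by its brightest probe or by its called probe. The random block by culture used statmod 1.5.0. The pipeline was tested on simulated data. The simulated arrays carried the fitted effects of the replicate number and no effect of a culture beyond its number. A gain from the block was therefore built in, and the simulation cannot show whether the block is right for these data. Of simulated differences of 0.585, the fit without the block called 1.49% and the blocked fit 19.4%. The blocked fit also called 7 unchanged probes, against 0 without the block. Of the probes 23978 have 1 gene symbol, 1719 have none and 0 have several, and 23962 matched the gene table by Entrez identifier. Promoters came from RefSeq (GRCm38.p6).

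The deviations of arrays from their group means had correlations of 0.527, 0.336, 0.363 and 0.303 between Ts-NT and WT-NT arrays of the same number, all over 0.1. Arrays of unlike number ran from −0.416 to 0.264. Among them Ts-NT 4 with WT-NT 3 (0.264) and Ts-NT 3 with WT-NT 4 (0.179) were also over 0.1. Each Ts-NT array correlated most with the WT-NT array of its number. The numbers were taken to pair the arrays, although a cut of 0.1 does not by itself set same-numbered arrays apart. The pairing rests on these data, since the labels do not say what a number shares. The study's design for this comparison has no such block, which is therefore given beside the results it changes.

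Genes named are those called with the block, the 10 highest and 10 lowest without overlap, all measured interval genes, up to 4 members of each list by lowest p, genes the study knocked down and cell type markers. One compared gene that the rule names is not reported here. The members, the lists and this rule were chosen with earlier results of these data known. Coordinates of genes were used for the promoter windows and to find the protein-coding genes next to the interval. Alternatives were neqc, normexp with an offset of 50 and quantile normalization, the authors' values, other detection filters, the median not taken off, the untreated arrays alone, blocks, and leaving out each array.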

Additional observations from a re-analysis of the deposited data

Results flagged for a closer look

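In groups of 4 arrays, 10 of 198 groups of named probes had an array whose gap to the nearest other was above Dixon's 95% critical value, about as many as the 1 in 20 that chance gives. In Ts-NT, replicate 1 was low for *Pmvk* (7.70, against 8.22 to 8.29 in the other 3 arrays) and high for *Chaf1b* (9.19, against 8.30 to 8.45). Ts-NT replicate 3 was low for *Atp5d* (10.46, against 10.77 to 10.81), and Ts-NT replicate 4 was high for *Krt18* (6.60, against 5.72 to 5.83). In WT-NT, replicate 3 was low for *Ybx3* (7.46, against 7.89 to 7.93).

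WT-NT replicate 1 was set apart for 5 genes. It was high for *Rpl35a* (12.64, against 11.94 to 12.06), *Npc2* (10.72, against 10.04 to 10.12) and *Itga6* (7.84, against 6.92 to 6.998), and low for *Klf6* (9.93, against 10.99 to 11.06) and *Rcan1* (8.59, against 9.14 to 9.18).

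The difference between genotypes was also compared with that in TPA-treated cells by an interaction term: limma called 0 of 5802 genes (lowest adjusted p = 1). Of these genes 246 had an unadjusted p below 0.05 at a probe, fewer than that threshold alone lets through by chance.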

How the results depend on the processing

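Without the block, neqc, no detection filter, detection on all 8 arrays, the methods' filter, the 8 untreated arrays alone, culture as a random block and leaving out any 1 array each called 0 genes (0 to 0 over the 8 arrays left out). Quantile normalization after normexp called 3, the authors' values 5 and the median not taken off 4. The replicate block called 10 genes, and 50 on the 8 untreated arrays alone. Settings added after seeing the data combined the block with neqc (18 genes), quantile normalization (72), the authors' values (33) and the median not taken off (88, of which 5 were higher and 83 lower, against 29 higher and 43 lower after quantile normalization). Of the 10 genes of the blocked fit, 10 were also called in each of these but the authors' values, which called 8 of them, and the sign was the same throughout. Leaving out a numbered pair left 0. The median of the interval was 0.10 to 0.41 over the alternatives relative to all genes, 0.12 to 0.41 over the arrays left out, and 0.08 with the median not taken off.

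Small differences turned. *Cbr1* was −0.12 with neqc and −0.041 after quantile normalization, and *Krt6a* 0.013 and 0.011. With no detection filter the differences were −0.067 for *Cbr1*, −0.020 for *Ets2*, −0.023 for *Bace2*, −0.11 for *Rcan1*, −0.051 for *Rab32*, −0.030 for *Krt14*, −0.077 for *Itga6*, −0.066 for *Col17a1*, −0.11 for *Krt17* and −0.048 for *Tyrp1*. With the median not taken off they were −0.089, −0.043, −0.046, −0.13, −0.074, −0.053, −0.0997, −0.089, −0.13 and −0.071 for the same genes in that order. Over the arrays left out, *Cbr1* ran from −0.31 to 0.25, *Krt6a* from −0.22 to 0.096, *Ets2* from −0.058 to 0.41, *Bace2* from −0.097 to 0.23, *Rcan1* from −0.14 to 0.11, *Rab32* from −0.14 to 0.28, *Itga6* from −0.034 to 0.25, *Col17a1* from −0.24 to 0.30, *Krt17* from −0.060 to 0.086 and *Tyrp1* from −0.049 to 0.26. *Trp63* ran from −0.36 to 0.24, *Mmp3* from −0.12 to 0.64, *Krt10* from −0.78 to 0.012, *Vim* from −0.42 to 0.091, *Mlana* from −0.28 to 0.16, *Krt18* from −0.45 to 0.061, *Cbr3* from −0.17 to 0.70 and *Get1* from −0.0012 to 0.41. The cause was not tested. *Pigp* was called in 8 of 28 settings (adjusted p from 0.00594 to 0.309, differences from 0.84 to 1.15), and *Ncstn* in 9 (−1.16 to −0.77). Array number limits the precision, and signals near background are the least certain.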
